A study of Mus musculus with 8 samples.

Results

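Short chromatin loops whose anchors both lay at gene ends made up 4277 of the 57865 loops (7.39%) listed on nuclear chromosomes for HA-tagged REV-ERBα in mouse liver at zeitgeber time (ZT) 10. A loop was taken when its anchor midpoints lay 100 kb or less apart, both anchors were at least 700 bp wide, and each anchor came within 5 kb of the start or end of a RefSeq protein-coding gene. Of the 35082 loops that met the span and width limits, called short wide loops here, 12.2% met the gene-end limit. In 1539 members both anchors lay at the ends of the same gene, and in 2738 they lay at different genes. The choice used this library's own anchors and counts, so its values are described without a test.

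The assay was in-situ ChIA-PET, in which crosslinked chromatin is cut and religated in nuclei and then immunoprecipitated. Each paired-end tag (PET) of a loop is 1 sequenced pair joining both anchors. The series has 8 samples, and the 6 pulled down with anti-HA beads were used. The remaining 2, pulled down with anti-CTCF, were not used here.

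All 6 libraries came from liver. The knock-in mice were of genotype REV-ERBa3HA/3HA, received no virus and gave 1 library at ZT10 and 1 at ZT22. The other 4 libraries came from REV-ERBaf/fREV-ERBbf/f mice, in which both REV-ERB genes are floxed, at ZT10. All of these received AAV8-TBG-Cre, and 2 libraries also had AAV8-TBG-3HA-REV-ERBa-WT (WT below) and 2 had AAV8-TBG-3HA-REV-ERBa-delhIDR (dhIDR below). The TBG promoter acts in hepatocytes, so other liver cells should keep their floxed genes and lack the construct, while the knock-in tag is on the endogenous gene of all cells. Whether the replicates of a construct are separate animals is not labelled. A p-value here therefore compares libraries, whose spread may be only technical. Listed PETs ranged from 104161 to 320427 per library, highest in the ZT10 knock-in library. The lowest count in every file is 3 PETs. A loop that is not listed may have had fewer, or may have been left out or placed at shifted anchors by the caller, which is not known here, so it is not read as an absence of PETs. Intervals below are 95% intervals and cover counting error only.

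REV-ERBα, the product of Nr1d1, is a nuclear receptor that represses transcription by bringing the NCoR corepressor and histone deacetylase to DNA. It binds the core motif AGGTCA, alone with an A/T-rich flank or as a spaced pair, and in liver it controls clock, lipid and bile acid genes over the day. A loop between a promoter and the far end of its gene, or between neighbouring promoters, is a common form of short chromatin contact at expressed genes.

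The promoters below lie at anchors of the members with the most PETs that joined 2 annotated gene starts, at the fibrinogen genes, Sdc4 and Nr1d1. Each is the 250 bases before the RefSeq start (GRCm38.p6), written 5′ to 3′ on the gene's strand, with AGGTCA on either strand in capitals. Fgg is at chr3:83007474-83007723 (plus strand), Fga at chr3:83025903-83026152 (plus), Fgb at chr3:83049864-83050113 (minus), Sdc4 at chr2:164443189-164443438 (minus) and Nr1d1 at chr11:98775378-98775627 (minus).
Fgg: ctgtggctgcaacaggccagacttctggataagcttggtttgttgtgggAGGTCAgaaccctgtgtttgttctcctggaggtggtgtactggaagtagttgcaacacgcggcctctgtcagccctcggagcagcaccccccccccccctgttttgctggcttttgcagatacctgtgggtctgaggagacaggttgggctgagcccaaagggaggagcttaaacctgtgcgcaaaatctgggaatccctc
Fga: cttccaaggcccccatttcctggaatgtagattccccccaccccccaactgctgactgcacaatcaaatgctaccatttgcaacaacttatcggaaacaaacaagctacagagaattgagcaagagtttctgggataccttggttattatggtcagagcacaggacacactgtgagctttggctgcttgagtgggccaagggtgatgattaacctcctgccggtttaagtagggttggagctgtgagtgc
Fgb: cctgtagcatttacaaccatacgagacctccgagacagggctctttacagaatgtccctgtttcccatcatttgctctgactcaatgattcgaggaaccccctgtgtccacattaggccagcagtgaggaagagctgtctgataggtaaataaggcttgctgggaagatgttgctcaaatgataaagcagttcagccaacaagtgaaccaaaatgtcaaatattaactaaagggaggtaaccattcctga
Sdc4: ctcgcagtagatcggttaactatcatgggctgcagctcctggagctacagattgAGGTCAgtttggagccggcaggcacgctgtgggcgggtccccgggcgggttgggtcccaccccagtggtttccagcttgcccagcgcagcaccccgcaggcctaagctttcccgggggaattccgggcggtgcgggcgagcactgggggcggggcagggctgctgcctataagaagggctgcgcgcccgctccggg
Nr1d1: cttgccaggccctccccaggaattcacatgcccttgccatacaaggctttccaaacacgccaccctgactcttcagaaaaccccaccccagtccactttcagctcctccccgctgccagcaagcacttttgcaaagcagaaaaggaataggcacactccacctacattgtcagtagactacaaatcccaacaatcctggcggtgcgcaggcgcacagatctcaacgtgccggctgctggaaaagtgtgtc

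The motif AGGTCA occurred 1 time in the Fgg and Sdc4 windows and 0 times in those of Fga, Fgb and Nr1d1. Over windows of the same 250 bases, it occurred in 11.6% of 1606 protein-coding promoters whose start lay in a member anchor and in 12.8% of all 21263. The RORE, the longer REV-ERB element (either strand), which includes the shorter TAGGTCA, was found in 0.249% of the member promoters and 0.263% of all, over 300 bases. TAGGTCA by itself was found in 2.37% and 2.32%. The ETS motif CCGGAAG was found in 17.1% of member promoters, 11.6% of promoters in anchors of loops with 1 anchor at a gene end, and 11.6% of all. The E-box CACGTG, bound by CLOCK and BMAL1, was found in 10.3%, 10.6% and 7.84% in the same order. Median GC content was 59.0%, 62.7% and 56.3%, and these shares were not adjusted for it. A match is a run of letters and not a measured binding site.

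Members had a median span of 23.8 kb. Same-gene loops were shorter, with a median of 14.8 kb and quartiles of 10.2 and 23.2 kb, and different-gene loops had a median of 31.5 kb and quartiles of 18.8 and 50.2 kb. The other 30805 short wide loops had a median of 25.6 kb. Same-gene spans are bounded by gene length plus the window, so the classes differ in what they could reach.

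**Figure D1:**
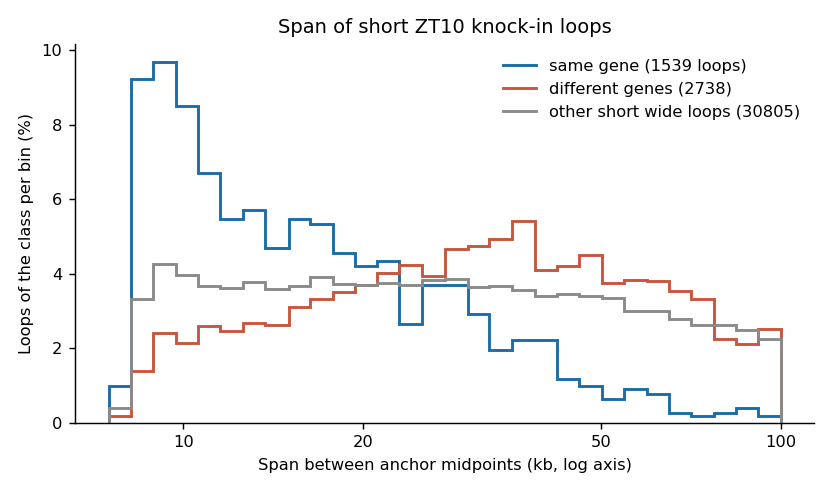
Share of loops (%) in each bin of the span between anchor midpoints (kb, log axis) for same-gene loops, different-gene loops and the other short wide loops of the ZT10 knock-in library. Same-gene loops peak at shorter spans, with a median of 14.8 kb against 31.5 kb for different-gene loops.

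PETs were concentrated in few members. The median member had 4 PETs, 1700 members (39.7%) had the minimum of 3, and 252 had 20 or more. The mean was 7.28 PETs, with 8.04 for same-gene loops, 6.86 for different-gene loops and 6.69 for the other short wide loops. The 31147 PETs of members were 9.72% of listed PETs, and 614 members (14.4%) held 50% of them. The 10 members with most PETs held 6.02%.

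PETs of loops just inside and just outside the limits are given without a test. Where the narrower anchor was 700 to 750 bp wide, 210 loops averaged 3.28 PETs, and from 650 to just under 700 bp, 248 loops averaged 3.21. At spans of 90 to 100 kb, 90 loops averaged 5.11, and at 100 to 110 kb, 105 averaged 4.74. With the farther anchor 4 to 5 kb from a gene end, 744 loops averaged 6.34, and at 5 to 6 kb, 799 averaged 6.97.

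Members shared anchors. Their anchors merged into 4940 intervals, of which 3330 served 1 loop, 258 served 5 or more and the most used served 35. Loops linked through common anchors formed 1480 groups, 829 of them single loops and 83 of 10 or more, which together held 1336 loops. Members of a group are therefore not independent.

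The group with most loops, 72 over 216 kb of chromosome 3, covered the Gstm glutathione transferases. The fibrinogen group had 40 loops over 53.5 kb and 1368 PETs, the most of the 10 groups with most loops. Further groups covered Mat1a and the lectin gene Mbl1 (40 loops), the Ugt1a glucuronosyltransferases with Hjurp (33), the Gstt transferases (31), the Acot thioesterases (27), the histidine-degrading genes Hal and Amdhd1 (25) and the apolipoproteins Apoe, Apoc1, Apoc2 and Apoc4 (24).

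Anchors lay closer to gene starts than to gene ends in the transcriptional sense. Strand was known for 17492 of 21887 genes. Anchor midpoints lay within 500 bp of the nearest start in 1429 cases and within 500 bp of the nearest end in 313. An anchor covered a start in 21.5% of 8554 cases and an end in 5.69%. These cases are both anchors of every member, so an interval that serves several loops counts for each of them. Different-gene members were resolved when every gene within 5 kb had a known strand and no anchor reached both a start and an end. Of these 1069, 509 (47.6%) joined 2 starts, 463 (43.3%) a start and an end, and 97 (9.07%) 2 ends. Left out were 699 that reached a start and an end at 1 anchor and 970 with a gene of unknown strand. Among same-gene members resolved in the same way, 579 of 654 (88.5%) joined the start to the end. This share follows from the class, as a resolved same-gene loop joins start to end unless both anchors reach the same end.

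**Figure D2:**
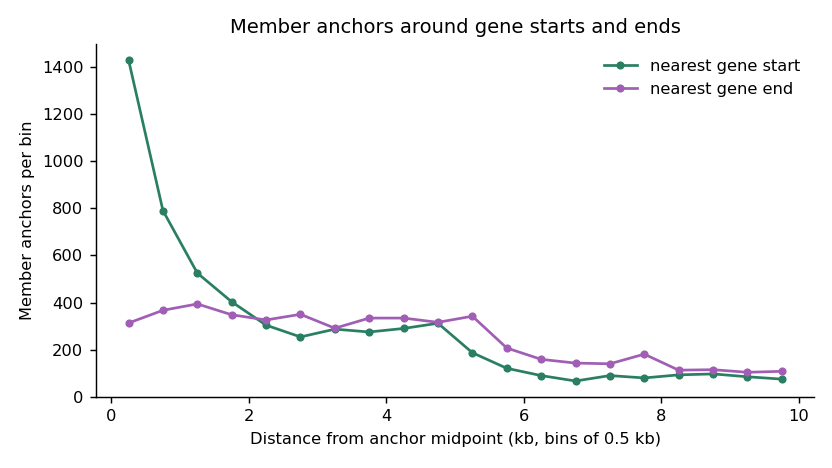
Number of member anchors in each 0.5-kb bin of distance (kb) from the anchor midpoint to the nearest gene start or to the nearest gene end. An interval that serves several loops counts for each of them. The bin nearest to the gene holds 1429 anchors by start and 313 by end, and the curves approach each other by 2 to 3 kb.

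A start and an end anchor of the same gene had similar widths, with medians of 1315 and 1298 bp over 1043 loops, and the start anchor was the wider in 52.3%. Of same-gene members, 1409 joined opposite ends and 130 had both anchors near 1 end. In 973 (63.2%) another gene also had an end within reach of an anchor, and in 881 (57.2%) the nearest gene end of both anchors belonged to the same gene. The split into same-gene and different-gene loops is thus a rule of distance, and many same-gene loops also touch a neighbour.

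A member loop lay at 3772 of 21887 genes (17.2%), and 986 genes (4.50%) had a same-gene loop. Genes of 10 to 20 kb had a same-gene loop in 8.54% of cases, those of 5 to 10 kb in 5.95%, those of 20 to 40 kb in 6.52% and those under 5 kb in 1.55%.

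With the 5 kb window, Fgg had the most PETs in same-gene members, and fibrinogen pairs had the most in different-gene members. Fgg, Fga and Fgb encode the chains of the clotting protein that hepatocytes secrete. Fgg had 397 PETs (359 to 438) in 3 same-gene loops, Fga 118 (97.7 to 141) in 9 and Fgb 94 (76.0 to 115) in 7. The member with most PETs, 374, ran from the start of Fgg to an interval that covers the start of Fga and comes within 5 kb of the end of Fgg. With a 2 kb window the same-gene PETs fell to 20 for Fgg, 16 for Fga and 28 for Fgb, and Crls1 (152), Gucd1 (133) and Vps37b (107) then stood above them. The loop from Fga to Fgb had 299 PETs at ZT10, 4 at ZT22, 7 and 4 in dhIDR replicates 1 and 2, and was not listed in either WT library. The loop from Fgg to Fgb had 258 at ZT10, 4 at ZT22 and 3 in WT replicate 1, and was not listed in the other libraries. Where listed outside ZT10, these 2 loops were thus within a few PETs of the listing minimum. Summed over loops of any width, the pair Fgg-Fgb had 11 PETs at ZT22 and 3 in WT replicate 1. The pair Fga-Fgb had 3 in WT replicate 1, 7 and 4 in dhIDR replicates 1 and 2, and none listed at ZT22. These sums went by nearness to gene ends and not by overlap with the ZT10 anchors.

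Other same-gene loops lay at genes of many functions. Nuak2, a kinase of the AMPK family, had 185 PETs (159 to 214), and Crls1, which encodes cardiolipin synthase, had 157 (133 to 184). Amotl2, a regulator of Hippo signalling, had 142, Gucd1 137 and Fam25c 108. One loop of 107 PETs at the shared 3′ part of the Ugt1a cluster counted for all 9 of its genes, which fill the last 8 of the 15 ranks that the rule gives, so the plot shows the cluster as 1 entry and adds the genes that follow. Vps37b, of the ESCRT sorting machinery, also had 107, the ethanolamine kinase gene Etnk2 98 and the paraoxonase gene Pon1 97. Sdc4, a heparan sulfate proteoglycan, had 91, the activin subunit gene Inhbc 88 and Tcim 87. The 2 kb window left 57 PETs for Nuak2, 17 for Amotl2, 73 for Fam25c, 4 for Etnk2, 59 for Sdc4 and 63 for Inhbc. It left 0 for Pon1, Tcim and the Ugt1a cluster gene Ugt1a10, whose own start lies far from the cluster's loop. An anchor of that loop covers the start of Ugt1a1, for which the 2 kb value was not computed. The order of genes therefore holds for the 5 kb window, and pair counts were not recomputed at other windows.

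**Figure D3:**
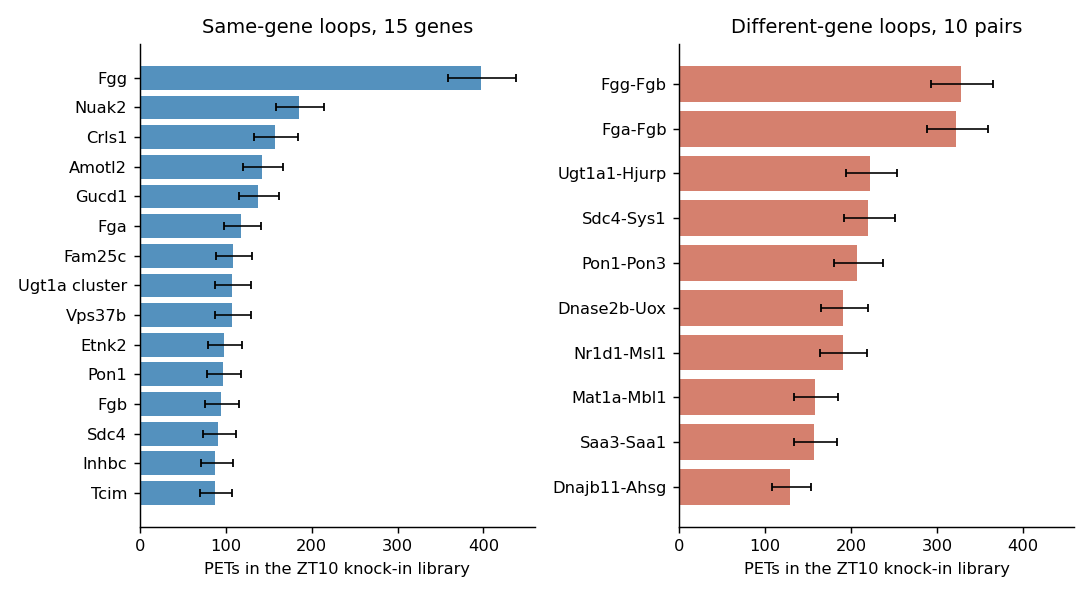
PETs in the ZT10 knock-in library, with exact Poisson 95% intervals, for the 15 genes or gene clusters with most PETs in same-gene members (left) and the 10 gene pairs with most PETs in different-gene members (right). At the 5 kb window used here Fgg has 397 PETs, which fell to 20 with 2 kb, and the pairs Fgg-Fgb and Fga-Fgb have 328 and 322.

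Different-gene members joined 1638 pairs of nearest genes, 1115 of them by 1 loop. Pairs with no protein-coding gene wholly between them made up 60.9%. After the fibrinogen pairs, Fgg-Fgb with 328 PETs and Fga-Fgb with 322, came Ugt1a1-Hjurp with 222 (194 to 253). Ugt1a1 conjugates bilirubin, and Hjurp encodes a centromere histone chaperone, with Mroh2a, which overlaps Hjurp, lying next to Ugt1a1. Sdc4-Sys1 had 220 PETs, Pon1-Pon3 207 and Dnase2b-Uox, the last being urate oxidase, 191. Mat1a, the liver enzyme of S-adenosylmethionine synthesis, and Mbl1 had 158, the serum amyloid genes Saa3 and Saa1 157, and Dnajb11 and the fetuin gene Ahsg 129.

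Pairs whose symbols share a stem, as gene families do, made up 162 of all 1638 pairs (9.89%). Of the 997 pairs with no gene between, 116 (11.6%) shared a stem, against 14.3% of 21866 neighbouring gene pairs in the annotation. The family pairs with most PETs were Pon1-Pon3, Saa3-Saa1, Bhmt-Bhmt2 with 104 PETs, Acot4-Acot3 with 99 and Ces1e-Ces1f with 80. Near-identical copies in such families can share reads, and how the authors treated reads with several matches is not given in the sources used here. Orientation was counted for 685 pairs with both strands known. Of these, 50.4% were tandem, 29.6% divergent and 20.0% convergent, against 52.3%, 24.2% and 23.5% of neighbouring genes.

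Core clock genes had member loops in 10 of 19 cases, against 17.2% of all genes. The pair Nr1d1-Msl1 had 190 PETs (164 to 219), of which a single loop from the start of Nr1d1 towards Msl1 held 184. Neither loop of that pair was listed in any of the other 5 libraries. Nr1d1 had 222 PETs in 9 members in all, and Thra, the thyroid hormone receptor gene that overlaps its 3′ end, shares several of them. The only member at Nr1d1 listed elsewhere joined it to Thra, with 3 PETs at ZT10 and 5 in WT replicate 1.

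Ciart, a repressor of CLOCK and BMAL1, had 84 PETs in 9 members, and its loop of 39 PETs had 4 in dhIDR replicate 1. Per2 had 21 in 6 same-gene loops, Bhlhe40 21 in 2, and Per1 20 in 5. Nfil3 had 5, Cry2 4, and Cry1 and Dbp 3 each, all in 1 loop. Apart from the Ciart and the Thra loop, no member at a clock gene was listed in another library.

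Lists of hepatocyte functions held many genes with members. These lists were compiled with earlier results of the data known, and a loop between 2 of their genes counts for both. Secreted hepatocyte proteins had a member at 22 of 29 genes, led by Fgg and Fga. Acute-phase proteins had 13 of 15, led by Saa1 with 246 PETs and Saa3 with 166. Fatty acid oxidation and ketogenesis had 16 of 19, led by Acadm, the medium-chain acyl-CoA dehydrogenase gene, with 144, and Acot1 with 128. Xenobiotic metabolism had 15 of 23, led by Ugt1a1 with 454 and Gstm1 with 187.

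Bile acid genes had a member in 10 of 14 cases. Nr0b2, the receptor SHP that represses bile acid synthesis, had 115 PETs, and the sterol 12-alpha-hydroxylase gene Cyp8b1 had 72. Glucose metabolism had 11 of 18, with Pck1, the gluconeogenic enzyme PEPCK, at 56 and Igfbp1 at 26. Liver transcription factors had 11 of 20, with Hnf4a at 24. Lipogenesis and sterol control had 10 of 23, with Acly at 22. The share of genes with a member was 17.2% over all genes.

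Markers of other liver cells are set here against the 17.2% of all genes with a member. Kupffer markers had 0 of 7, stellate markers 0 of 7 and cholangiocyte markers 0 of 6. Endothelial markers had 2 of 8 (25%), Lyve1 with 4 PETs and Fcgr2b with 3, and lymphocyte markers had 1 of 6 (16.7%), Cd4 with 6 PETs. Of the hepatocyte markers, Apoa1, Hnf4a, Ttr and Alb had 36, 24, 9 and 3 PETs in members. For the hepatocyte markers Serpina1a and Cyp3a11 no member PETs are given here.

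The same rule found far fewer loops in each of the other libraries. It gave 263 at ZT22. For WT it gave 67 and 66, for dhIDR 48 and 16, and none of these loops had more than 7 PETs. Their median anchor was narrower, at 626 bp at ZT22 and 601 to 604 bp in the AAV libraries, against 1067 bp at ZT10. A smaller share of their loops was also short. The span limit alone kept 72.8% of loops at ZT10, 34.3% at ZT22 and 23.6% to 27.5% in the AAV libraries. With the width limit of 700 bp added, 60.6% were kept at ZT10, 10.8% at ZT22 and 0.586% to 5.35% in the AAV libraries. The part of library quality in this was not tested.

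As a share of each library's own short wide loops, gene-end pairs made up 12.2% (11.9 to 12.5) at ZT10 and 6.01% (5.34 to 6.75) at ZT22. For WT the shares were 4.03% (3.19 to 5.09) and 3.66% (2.89 to 4.63), and for dhIDR 7.03% (5.34 to 9.19) and 6.50% (4.04 to 10.3). Both dhIDR libraries lay above both WT libraries. The means were 3.85% ± 0.264 (SD, n = 2) in WT and 6.77% ± 0.370 (SD, n = 2) in dhIDR, a difference of -2.92 percentage points for WT minus dhIDR (exact two-sided permutation p = 0.333, the smallest that 2 against 2 libraries can give). The dhIDR shares rest on 683 and 246 short wide loops. With anchors of 500 bp or wider the difference was -0.905.

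**Figure D4:**
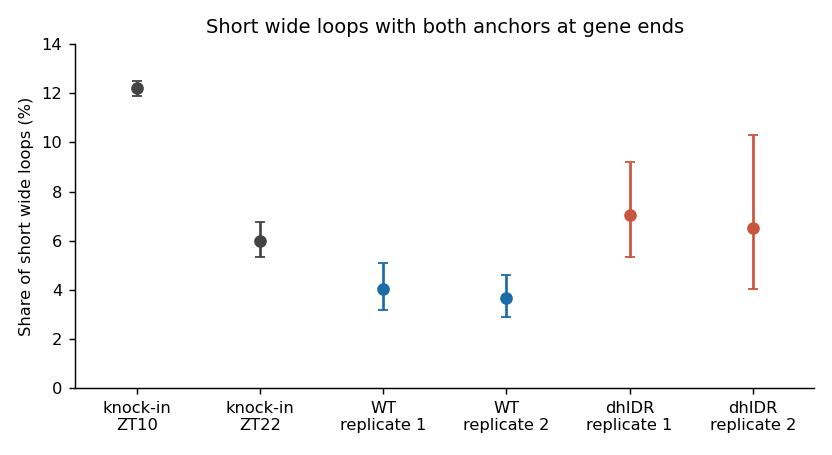
Share (%) of each library's short wide loops that have both anchors at gene ends, with Wilson 95% intervals for counting error. The ZT10 knock-in library is at 12.2%, ZT22 at 6.01%, WT at 4.03% and 3.66%, and dhIDR at 7.03% and 6.50%.

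Few members were listed in another library. A match needed an overlap of 1 bp or more at each anchor. At ZT22, 59 members (1.38%, 1.07 to 1.78) were listed, where 1.46% of all short wide ZT10 loops were. In at least 1 AAV library 99 were listed (2.31%, 1.91 to 2.81), where 2.02% of all short wide loops were. By library these were 16 and 26 for WT and 42 and 20 for dhIDR. Leaving out dhIDR replicate 1 lowered the AAV count from 99 to 60. The members' shares were thus near those of short wide loops in general.

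Any of the other 5 libraries listed 153 members (3.58%), of which 144 were listed in 1 library, 8 in 2 and 1 in 3. Same-gene and different-gene members were listed at like rates, 3.57% and 3.58%. The highest matched count in a single other library was 8 PETs. WT libraries shared 1 member between them and dhIDR libraries 2.

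The share listed rose with the loop's PETs at ZT10. Of members with 3 PETs, 0.471% were listed at ZT22 and 1.00% in an AAV library. Of the 58 members with 50 or more, 25.9% (16.3 to 38.4) and 19% (10.9 to 30.9) were. The other short wide loops with 50 or more PETs were listed in 17.2% (13.2 to 22.1) and 31.5% (26.3 to 37.2) of cases. Loops with a narrow anchor had few PETs, a mean of 3.28 at 700 to 750 bp against 7.28 over all members, and the part of anchor width in these shares was not tested.

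**Figure D5:**
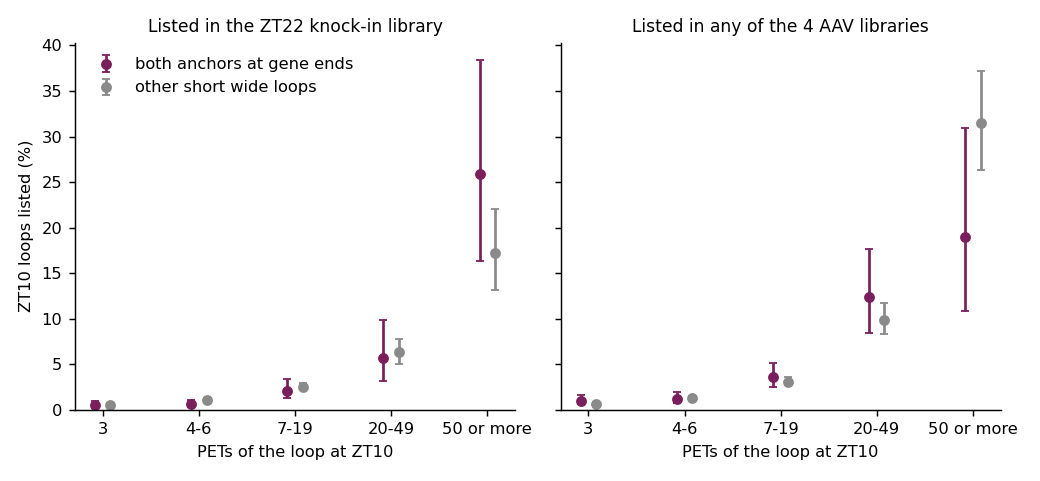
Share (%) of ZT10 knock-in loops listed in the ZT22 knock-in library (left) or in any AAV library (right), by the loop's PETs at ZT10, for members and for the other short wide loops, with Wilson 95% intervals. In both panels the share is lowest at 3 PETs and highest at 50 or more, where it is 25.9% and 19% for members.

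The members with most PETs in the other 5 libraries were Fga-Fgb with 15 in all, Tcim with 11, Smagp-Cela1 with 9, Wdr3-Gdap2 with 8, and Fgg-Fgb, Crls1, Tnfrsf1b, Nuak2 and Mstn with 7 each, followed by Saa3-Saa1 with 6. At Tcim, the loop had 87 PETs at ZT10, 8 at ZT22 and 3 in WT replicate 1. Smagp-Cela1 had 5 at ZT10 and 6 and 3 in the dhIDR replicates. Wdr3-Gdap2 had 9 at ZT10 and 5 and 3 in the WT replicates. At Mstn, the myostatin gene, a loop had 23 PETs at ZT10 and 7 at ZT22. These loops were chosen for their counts, so the counts are a description.

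Genes with a same-gene loop at ZT10 had a listed same-gene loop elsewhere in 5.07% of cases at ZT22. In WT the shares were 2.03% and 1.62%, and in dhIDR 3.45% and 2.33%. For the other 20901 genes the shares were 1.07%, 0.536%, 0.856%, 0.947% and 0.565% in the same order. Among genes of 10 to 40 kb they were 6.19%, 1.67%, 2.01%, 4.18% and 3.01% with a ZT10 loop, and 1.64%, 0.884%, 1.48%, 1.69% and 0.992% without. In both sets all 5 libraries had the higher share at the genes looped at ZT10, which was not tested. The WT shares at 10 to 40 kb rest on 10 and 12 of 598 looped genes. Not every narrower length class had the higher share, as in WT replicate 2 under 5 kb, with 0% against 0.262%. Here the libraries' loops were of any width and did not have to overlap the ZT10 anchors.

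WT and dhIDR libraries were compared per gene, by the PETs of all loops of any span near its ends. The test was edgeR's quasi-likelihood test with Benjamini-Hochberg adjustment. Of 333 genes tested, 0 passed an adjusted p of 0.05 (0% called), and 22 had an unadjusted p under 0.05. Of the 61 tested genes that had a member loop, 0 passed and 6 had an unadjusted p under 0.05. Rffl, a ubiquitin ligase gene, had the smallest p among them, with 13 and 19 PETs in WT and none listed in dhIDR (adjusted p = 0.735). Pecr and Tmem169, neighbours that share their loops, had none listed in WT and 14 and 19 in dhIDR (adjusted p = 0.735). Heatr1 had 13 and 18 in WT and 3 and 4 in dhIDR, Fam210b 9 and 13 in WT and none listed in dhIDR, and Mmp15 none listed in WT and 11 and 10 in dhIDR. These 6 genes were chosen by their p. Those with none listed for a construct passed the low-count filter only through the other construct, so that separation is not a result. By DESeq2, 4 of the 333 genes passed, and Rffl was the 1 with a member loop (adjusted p = 0.0349). With loops of 100 kb or less only, edgeR could test 8 genes, 4 of them with a member loop, and 0 passed. Such loops were 23.6% to 27.5% of the loops in the AAV libraries. The gene counts above therefore do not describe short loops alone.

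Per loop, 61 ZT10 loops had matched PETs in at least 2 AAV libraries, of which 5 were members. By edgeR 0 of 61 passed (0% called) and 14 had an unadjusted p under 0.05. Fga-Fgb had none listed in WT and 7 and 4 PETs in dhIDR (adjusted p = 0.0671), and Smagp-Cela1 none and 6 and 3 (adjusted p = 0.0671). Wdr3-Gdap2 had 5 and 3 in WT and none listed in dhIDR (adjusted p = 0.326). Each of these loops met the limit of 2 libraries only through the construct that listed it, so the separation is not a result. These calls depended on the libraries and the scaling. Without WT replicate 2, 6 loops passed, of which 2 were members, without dhIDR replicate 1, 9 passed, of which 2 were members, and without dhIDR replicate 2, 7 passed, none of them a member. Their direction turned with the setting, as 0 of the 6 and 0 of the 9 were higher in WT, and all 7 were, as were all 12 called without TMM factors and all 18 called by DESeq2. A fit that leaves out a library has 1 library in an arm, which is assumed to vary like those of the other group.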

How the data were processed

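The authors deposited a file of loops for every library, with the 2 anchor intervals of a loop and its whole-number PET counts, not normalized. Per the submitters' processing notes the build was mm10, and the aligner, duplicate filter and loop caller are not given in the sources used here. Other deposited columns are anchor coordinates. Genes came from RefSeq GRCm38.p6, and strand and promoters from RefSeq's promoter table. Members, gene lists and tests were chosen with earlier results of these data known.

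Named genes were the 15 genes and 10 pairs with most PETs, the 10 members with most PETs elsewhere, all core clock members and the 2 leading members of each other list. Some genes that this rule takes are not reported here. The largest groups of loops, the family pairs and the genes with the smallest p were named after their values were seen.

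PETs per gene and per loop were tested with edgeR 4.0.16 (R 4.3.3; TMM, filterByExpr for genes, adjusted p 0.05), with DESeq2 1.42.0 as an alternative. Library size was the listed nuclear PETs. An earlier fit used the column sums of each table, and listed PETs were chosen after both had been seen. Both called 0 genes and 0 loops. Unlisted loops entered as 0. Matching was tested on simulated data, as was edgeR. At the real depth and dispersion it recovered 0 of 14 simulated 4-fold and 0 of 17 simulated 8-fold changes, so this comparison had little power. With a dispersion of 0.05 and 10 times the depth, 74.6% of 4-fold and 98% of 8-fold changes were recovered. Shares have Wilson intervals and PETs exact Poisson intervals. Alternatives covered the limits of the rule, the matching of loops, the tools and each AAV library left out.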

Additional observations from a re-analysis of the deposited data

How the results depend on the processing

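The number of members follows the limits set. It was 2057 with a 2 kb window, 8420 with 10 kb, 2805 with anchors of 1000 bp or wider and 1746 with 5 PETs or more, against 4277, and same-gene members numbered 432, 5056 and 695 with 2 kb, 10 kb and 5 PETs, against 1539. Members listed at ZT22 rose from 59 to 107 with anchors up to 1 kb apart and to 244 by 10-kb bins. Those listed in an AAV library rose from 99 to 203 and 436, fell to 37 when only wide loops of those libraries counted, and ranged from 60 to 85 with each AAV library left out, a check added after the data were seen. The mean gene-end share stayed lower in WT than in dhIDR under every alternative run, but with 5 PETs or more the libraries of the groups overlapped (exact permutation p = 0.667). It was lower by 2.66 to 3.18 points (as WT minus dhIDR, -3.18 to -2.66) with each library left out. Per gene, DESeq2 called 4 genes and the whole gene body 1, and leaving out a library gave 0 to 3. Per loop, listed PETs with no TMM factor called 12 of 61, DESeq2 18, and leaving out a library gave 0 to 9. With column sums as library size, the fit run first, 0 of 372 genes and 0 of 61 loops passed. With the replicate block, 0 genes and 3 loops passed, none of the loops a member. Same-numbered libraries deviated with a correlation of 0.057 over 333 genes, so the numbers were not taken as pairing. Of 64 alternatives to these counts and the share, 42 kept the count within 1.5 times or the direction of the share. Few PETs per loop, near the minimum of 3, limit every comparison with the other libraries.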

Other observations

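Of the gene-end pairs found in the other libraries by the same rule, a part matched a ZT10 loop of any kind. It was 39 of 263 (14.8%) at ZT22. For WT it was 6 of 67 and 8 of 66, and for dhIDR 16 of 48 (33.3%, Wilson 95% interval 21.7 to 47.5) and 2 of 16. Among the other short wide loops of these libraries it was 7.32% at ZT22, 5.52% and 5.35% for WT, and 19.7% and 11.7% for dhIDR. The strongest such pairs with no ZT10 counterpart included a loop at Serp2 with 7 PETs at ZT22, a Pcdha8-Pcdha9 loop with 7 in WT replicate 2, and loops of 5 PETs at Sirt1-Dnajc12 and Cxcl9-Cxcl10 in dhIDR replicate 1.

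Members were unevenly spread over chromosomes. They made up 18.0% of short wide loops on chromosome 7, 17.2% on 17 and 16.5% on 3 and 11, and 7.45% on 5 and 7.12% on X. Protein-coding genes numbered 2030 on chromosome 7, 1059 on 17, 983 on 3, 1609 on 11, 1269 on 5 and 966 on X. The rule needs gene ends, and these shares were not adjusted for gene density.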
